A study of Caenorhabditis elegans with 6 samples.

Results

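Transcripts of 60 genes that drive mitosis were followed in descendants of the QR neuroblast of the nematode Caenorhabditis elegans. The genes were chosen by name, for their known roles in chromosome segregation, the spindle and cell division, and all 60 were found among the 14700 genes of the deposited table. These genes, and the lists set beside them, were chosen with earlier results of these data known. Counts and sums over them are therefore descriptions and not tests. The cells came from first-stage larvae fed for 7 hours after arrest at that stage and were pooled, 2000 cells to a library, with 3 libraries in each of 2 groups. The genotype of control larvae held the mab-5 allele gk670, huIs166 and ayIs9. In ΔN-BAR-1 larvae huIs179 was added to these, and the series describes them as expressing ΔN-BAR-1 in the Q lineage. BAR-1 is the β-catenin of the canonical Wnt pathway, in which it acts as a transcriptional coactivator, and forms lacking the N terminus escape degradation. The comparison asks which genes respond to that pathway in these cells. Both groups lacked normal mab-5, a Hox gene of the Q lineage, so no library stands for the wild type. The promoter that drives ΔN-BAR-1 is not given in the sources used here. Whether libraries of a group derive from different cultures is not stated in the labels. Each p-value therefore reflects only how these libraries varied, and that variation may be technical.

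Mitosis is started by the kinase CDK-1 with its B-type cyclins. Centrosomes then build a spindle, kinetochores attach each chromosome to it, and a checkpoint delays anaphase until every chromosome is attached. Separation of the chromosomes is followed by assembly of the spindle midzone and a contractile ring that cuts the cell. The QR neuroblast divides several times while its descendants migrate along the body, and its final products leave the cell cycle to become neurons or die.

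Library totals ran from 68431 estimated transcripts in control replicate 3 to 254362 in control replicate 2. A single transcript corresponded to between 3.74 and 15.2 CPM (counts scaled to a common library size with TMM factors), so that 3 transcripts, the most that a count of 0 allows, equalled 45.6 CPM in the shallowest library. Each transcript was counted once at its 3′ end, so levels of different genes can be compared without correction for length. All 8 Q lineage markers examined passed the filter on low counts, of which mec-3 and hlh-14 passed through the ΔN-BAR-1 libraries alone and egl-17 through the control libraries alone. Of 20 germline markers, 8 had no transcript in any library. Apart from mex-3, which had 398 transcripts in all, no germline marker had more than 15 over the 6 libraries, and the other 19 together had 2 to 8 transcripts in 5 libraries and 12 in control replicate 2. The larval germ line also divides, and whether it gave part of the mitosis transcripts was not tested. Nor was it tested whether each of these markers is expressed in the germ line at this stage. Body wall muscle markers were present in every library, at 5688 to 18768 CPM in sum. Most of that came from unc-54 and act-4, with 7129 and 3949 transcripts over all libraries. The other muscle markers had from 2 (myo-3) to 318 (mlc-3), so the sum does not stand for the markers as a set. ΔN-BAR-1 replicate 1 stood furthest from the others of its group, with a chi-square per degree of freedom of 8.09 and 10.7 against replicates 2 and 3, and replicates 2 and 3 gave 5.53 against each other, where pairs of control libraries gave 2.39 to 3.15.

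The mitosis genes took a smaller share of the transcripts in ΔN-BAR-1 libraries. Their summed level, with every member included, was 12859.9, 11358 and 12214 CPM in control replicates 1 to 3 and 7826, 8437 and 7588 CPM in ΔN-BAR-1 replicates 1 to 3. The groups did not overlap, and the ΔN-BAR-1 mean was 65.5% of the control mean (12144 ± 753 against 7951 ± 438 CPM, SD, n = 3 a group). As a share of all transcripts the members made up 1.17% to 1.29% of the control libraries and 0.713% to 0.857% of the ΔN-BAR-1 libraries. Leaving out any single library gave ΔN-BAR-1 sums of 61.8% to 66.4% of control, with 66.2% when ΔN-BAR-1 replicate 1 was left out. In pools of cells, fewer dividing cells and fewer mitotic transcripts per dividing cell cannot be told apart.

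**Figure D1:**
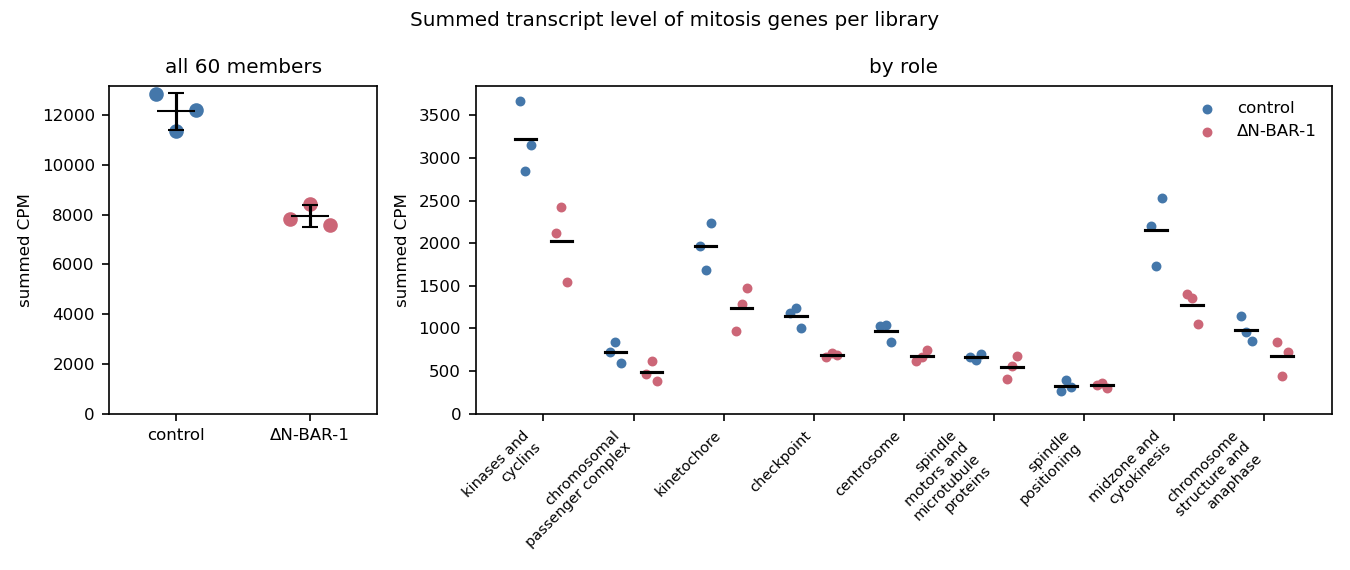
Summed level of the mitosis genes in CPM for each library, for all 60 members (left; points are libraries, bars mean ± SD, n = 3) and by role (right; points are libraries, lines are means). The 3 ΔN-BAR-1 libraries lie between 7588 and 8437 CPM in the left panel, below all control libraries, and sums for spindle positioning genes overlap between the groups.

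Of the 9 roles into which the members were sorted, 6 had sums that did not overlap between the groups, each lower in ΔN-BAR-1. The mean of ΔN-BAR-1 libraries was 59.1% of control for midzone and cytokinesis genes, 60.4% for checkpoint genes, 63.0% for kinases and cyclins, 63.3% for kinetochore genes, 68.0% for chromosome structure and anaphase genes and 69.7% for centrosome genes. The sums overlapped for the chromosomal passenger complex (68.5%), for spindle motors and microtubule proteins (82.9%) and for spindle positioning genes (101%). The difference between these roles was not tested, and single abundant genes weigh on the sums. In the mean, ani-1 gave 1146 of 2152 CPM of the midzone and cytokinesis sum in control and 552 of 1272 CPM in ΔN-BAR-1. The uneven cls-2 gave 791 of 1963 CPM of the kinetochore sum in control and 552 of 1242 CPM in ΔN-BAR-1. Of the whole difference of 4194 CPM, 5 abundant genes (ani-1, cyb-3, cdk-1, cls-2 and plk-1) made up 43.4%, and the other members together still stood at 68.4% of control.

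Gene by gene, 1 member was called. The checkpoint gene zwl-1 was the only one to pass an adjusted p of 0.05 over the 3447 genes tested, and 0 members were higher (edgeR quasi-likelihood test, Benjamini-Hochberg). Over all genes tested, 1.65% were called, 0.087% lower and 1.57% higher. DESeq2 called zwl-1 as well and limma-voom called 0 members. At an unadjusted p below 0.05 edgeR gave 17 lower and 0 higher members, where 3.42% of all genes were lower and 8.21% higher. The 17 were 36.2% of the tested members. Among them zwl-1, knl-3, klp-18, ect-2 and scc-1 passed the filter on low counts only through the control libraries. Without that filter 16 of 58 members were at an unadjusted edgeR p below 0.05. With the filter, the number of members at that threshold was 10 of 51 tested without control replicate 1 and 11 of 48 without control replicate 2. The share of all genes at that threshold is not given for the unfiltered fit or the fits without a library, so these counts are not read against it. With simulated counts for this comparison the test found 12 of 92 genes given a 2-fold change and 71 of 84 given a 4-fold change, so that changes near 2-fold were mostly not called.

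All members can be accounted for. The low-count filter let 47 through, of which 9 passed only because the control libraries were high enough (zwl-1, knl-3, klp-18, ect-2, scc-1, zyg-9, gip-1, bmk-1 and hcp-6), and 0 passed only through the ΔN-BAR-1 libraries. For that reason the direction was also read without the filter, over the 58 members with any transcript. There 50 of 58 had a log2 fold change below 0, with a median of −0.63, whereas 49.4% of all 10747 detected genes lay below 0, with a median of 0.01. In 21 of the 58 the groups did not overlap with ΔN-BAR-1 lower, and in 0 with ΔN-BAR-1 higher. Among all detected genes this held for 4.1% and 6.29%. Among the 47 tested members the median was −0.62, 42 lay below 0, and 19 had groups apart with ΔN-BAR-1 lower and 0 with ΔN-BAR-1 higher, where all genes tested gave 7.22% and 9.92%.

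**Figure D2:**
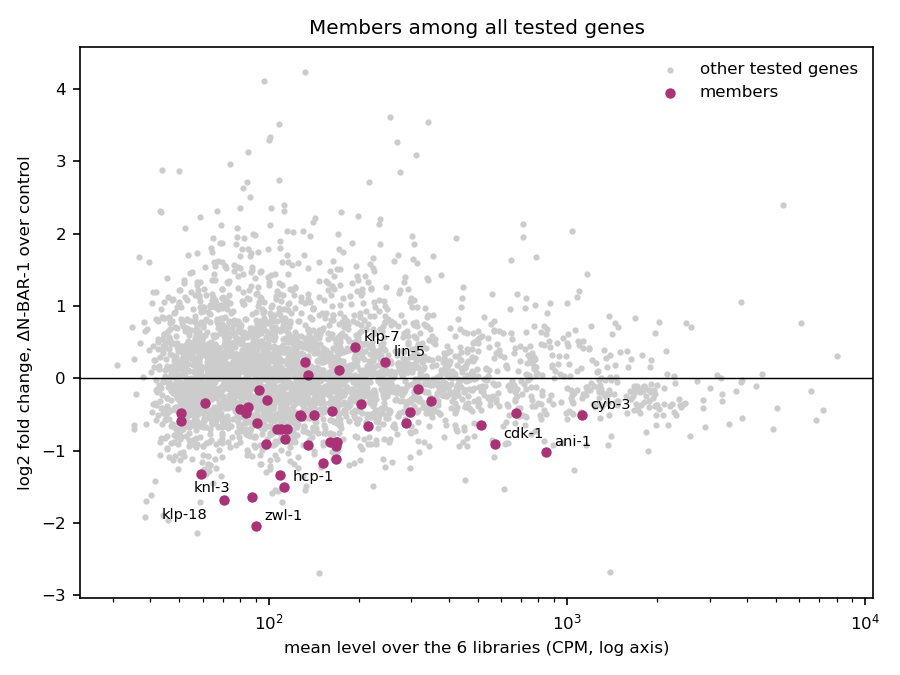
Log2 fold change of ΔN-BAR-1 over control (vertical axis) against mean level in CPM on a log axis, for all 3447 genes tested, with the 47 tested members coloured. Of the 47 members 42 lie below the line at 0, and zwl-1 lies lowest among them at −2.04.

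The kinases and cyclins that trigger mitosis were the most abundant role. The B-type cyclin gene cyb-3 had the highest level of all members in both groups, with 1397, 1190.1 and 1369 CPM in the control and 913, 1183 and 649 CPM in the ΔN-BAR-1 libraries. The libraries of ΔN-BAR-1 were all lower, though replicate 2 came close to the nearest control (log2 fold change −0.51 ± 0.32, SE; edgeR adjusted p = 0.614). The gene of its partner kinase, cdk-1, stood at 950.4, 636 and 654 CPM in control and at 399, 475 and 314 CPM in ΔN-BAR-1 libraries. The groups were well apart, but the difference did not pass over all genes (−0.91 ± 0.32; edgeR adjusted p = 0.174). The polo-like kinase gene plk-1, which acts at centrosomes and kinetochores, ran from 546 to 718 CPM in control and from 373 to 418 CPM in ΔN-BAR-1 libraries. The Aurora A gene air-1, needed for centrosome maturation, and the cyclin gene cyb-1 had overlapping groups and log2 fold changes of −0.92 ± 0.41 and −0.62 ± 0.38. No transcript of the near-identical cyclin genes cyb-2.1 and cyb-2.2 was found in any library. In the deepest library, control replicate 2, a count of 0 allows a level of up to 11.2 CPM, for counting error only. How reads that match both genes of this pair were counted is not given in the sources used here. If such reads were left out, a count of 0 sets no upper level for either gene.

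The chromosomal passenger complex corrects faulty attachments and later acts in cytokinesis. Its scaffold gene icp-1 (INCENP) was even within the groups, at 200.4, 209.6 and 213 CPM in control and 96.1, 116 and 121 CPM in ΔN-BAR-1 libraries. All 3 ΔN-BAR-1 values lay far below the controls, and the log2 fold change was −0.88 ± 0.36 (edgeR adjusted p = 0.298). The kinase gene air-2 (Aurora B) had groups apart as well (−0.70 ± 0.42), and csc-1, a targeting subunit, had overlapping groups (−0.93 ± 0.41). The survivin-like gene bir-1 went the other way in the mean, with 194, 198 and 91.3 CPM in control and 221, 214 and 112 CPM in ΔN-BAR-1 libraries. Its groups overlapped (0.12 ± 0.39; edgeR adjusted p = 0.958), and its sign changed in 4 of 17 alternative settings.

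Kinetochores in C. elegans form along the whole length of each chromosome. All 9 tested kinetochore genes had log2 fold changes below 0, from −0.31 for hcp-4 (CENP-C), which links the centromere to the outer plate, to −1.63 for knl-3. The knl-3 gene encodes a subunit of the microtubule-binding network; it stood at 168, 97.3 and 137 CPM in control and 38.4, 32.6 and 53.8 CPM in ΔN-BAR-1 libraries. These groups were clearly separate, yet the call was missed (−1.63 ± 0.46; edgeR adjusted p = 0.0788), and it was missed in all 15 alternatives that tested the gene (0.0623 to 0.497). The CENP-F-like gene hcp-1, whose protein brings the microtubule-stabilising CLASP protein CLS-2 to kinetochores, had 175, 228 and 91.3 CPM in control and 48.0, 65.2 and 67.2 CPM in ΔN-BAR-1 libraries (−1.51 ± 0.44; edgeR adjusted p = 0.0835). The highest ΔN-BAR-1 value lay below the lowest control. Its relative hcp-2, below the filter, had 32.3, 74.8 and 30.4 CPM in control and 62.5, 37.3 and 26.9 CPM in ΔN-BAR-1 libraries, with overlapping groups.

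In the remaining tested kinetochore genes the groups overlapped. The CLASP gene cls-2 was the most abundant of them and uneven between libraries, at 737, 494 and 1141 CPM in control and 192, 671 and 793 CPM in ΔN-BAR-1 libraries. ΔN-BAR-1 replicate 1 was the lowest library by far, and the log2 fold change of −0.48 ± 0.45 (edgeR adjusted p = 0.794) was −0.06 to −0.85 over its alternatives. The centromeric histone gene hcp-3 (CENP-A) ran from 191 to 304 CPM in control and from 148 to 191 CPM in ΔN-BAR-1 libraries, touching at the edge (−0.65 ± 0.35). The genes knl-1 and ndc-80, whose proteins bind microtubules, stood at −0.84 ± 0.45 and −0.70 ± 0.42, and him-10 (NUF-type partner of NDC-80) and knl-2 (loading factor of the centromeric histone) at −0.35 ± 0.54 and −0.40 ± 0.46. In the reference annotation the exons of hcp-1, hcp-3, knl-2, knl-3 and ndc-80 overlap a gene on the other strand, and whether reads were counted by strand is not given in the sources used here.

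**Figure D3:**
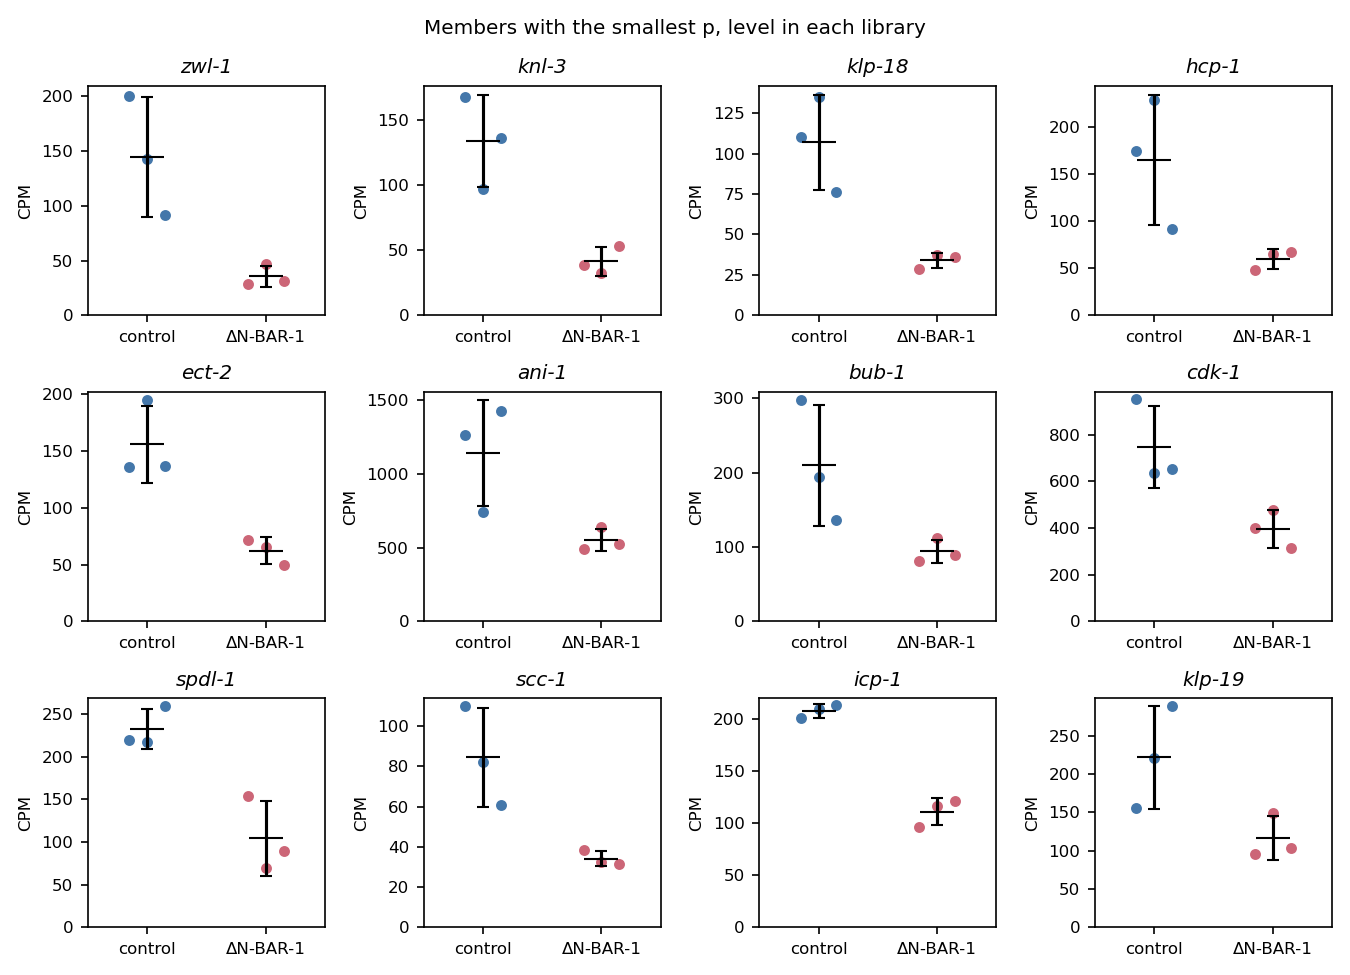
Level in CPM in each library for the 12 tested members with the smallest p (points are libraries, bars mean ± SD, n = 3 per group). In every panel the ΔN-BAR-1 libraries lie below the control libraries; zwl-1 falls from 145 to 35.6 CPM in the mean.

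The spindle checkpoint held the 1 member that was called. ZWL-1 (Zwilch) forms with ROD-1 and CZW-1 a complex that brings dynein and checkpoint proteins to unattached kinetochores. Its gene had 200.4, 142 and 91.3 CPM in control replicates 1 to 3, from 31, 38 and 6 transcripts, and 28.8, 46.6 and 31.4 CPM in ΔN-BAR-1 replicates 1 to 3, from 6, 10 and 7 transcripts. Every control value lay above every ΔN-BAR-1 value. The gene fell by 2.04 ± 0.47 on the log2 scale (SE; edgeR adjusted p = 0.0241), from 145 ± 54.6 to 35.6 ± 9.61 CPM (SD, n = 3 each). The call was lost when control replicate 1 (edgeR adjusted p = 0.300) or control replicate 2 (0.121) was left out, with the replicate number as a block (0.129), with limma-voom (0.104) and without replicate 3 of both groups (0.107). Because zwl-1 passed the low-count filter through the control libraries alone, its value without that filter also bears on the call (−2.05; edgeR adjusted p = 0.0111). The call held in the other 10 of 15 alternatives, and the log2 fold change stayed between −2.31 and −1.77.

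The other subunits of the same complex did not pass. The rod-1 gene stood at 64.7, 142 and 60.8 CPM in control and 52.8, 79.2 and 80.6 CPM in ΔN-BAR-1 libraries, and czw-1 at 58.2, 71.1 and 45.6 against 38.4, 9.32 and 80.6 CPM. Both overlapped between the groups (−0.42 ± 0.46 and −0.49 ± 0.62; edgeR adjusted p = 0.839 and 0.879). Ratios between genes were taken after 0.5 was added to each count. The log2 ratio of zwl-1 to rod-1 transcripts averaged 0.71 ± 0.81 in control libraries and −0.95 ± 0.30 in those of ΔN-BAR-1 (SD, n = 3 a group). The groups did not overlap, which gives p = 0.1 in a two-sided exact permutation test, the smallest this design allows, and 0.35 adjusted over the 7 ratios examined, which were chosen after the values were seen. The same p was obtained for the ratio of hcp-1 to hcp-2, at 1.76 ± 0.50 in control libraries and 0.55 ± 0.83 in those of ΔN-BAR-1 (exact permutation test). That ratio rests on 2 to 20 hcp-2 transcripts a library. Both zwl-1 and hcp-1 were already among the members with the smallest p, so neither ratio is evidence separate from those genes. For zwl-1 against czw-1 the ratio was 1.20 ± 0.46 in control libraries and 0.13 ± 1.74 in those of ΔN-BAR-1, with overlapping groups (exact permutation p = 0.4). The other 4 ratios, cyb-3 to cyb-1, cdk-1 to cyb-3, air-1 to air-2 and zen-4 to cyk-4, gave exact permutation p-values from 0.2 to 0.8.

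Spindly, the dynein adaptor recruited by the ZWL-1 complex, is encoded by spdl-1. Its level was 219.8, 217 and 259 CPM in control and 154, 69.9 and 89.6 CPM in ΔN-BAR-1 libraries (−1.11 ± 0.39; edgeR adjusted p = 0.174). All ΔN-BAR-1 libraries were lower, replicate 1 the least so, and without that library the gene was called as well (−1.51; edgeR adjusted p = 0.0347). The kinase gene bub-1 had 297, 195 and 137 CPM in control and 81.7, 112 and 89.6 CPM in ΔN-BAR-1 libraries (−1.17 ± 0.39; edgeR adjusted p = 0.152), again without overlap. Its binding partner bub-3 was level, at 130.2 ± 34.6 and 139 ± 28.6 CPM (SD, n = 3 each; 0.05 ± 0.39). The Mad2 gene mdf-2, the most abundant checkpoint gene over all libraries, overlapped between the groups at 149 to 289 and 157 to 209.7 CPM (−0.36 ± 0.36; edgeR adjusted p = 0.807). Its partner mdf-1 was below the filter with 45 transcripts in all.

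**Figure D4:**
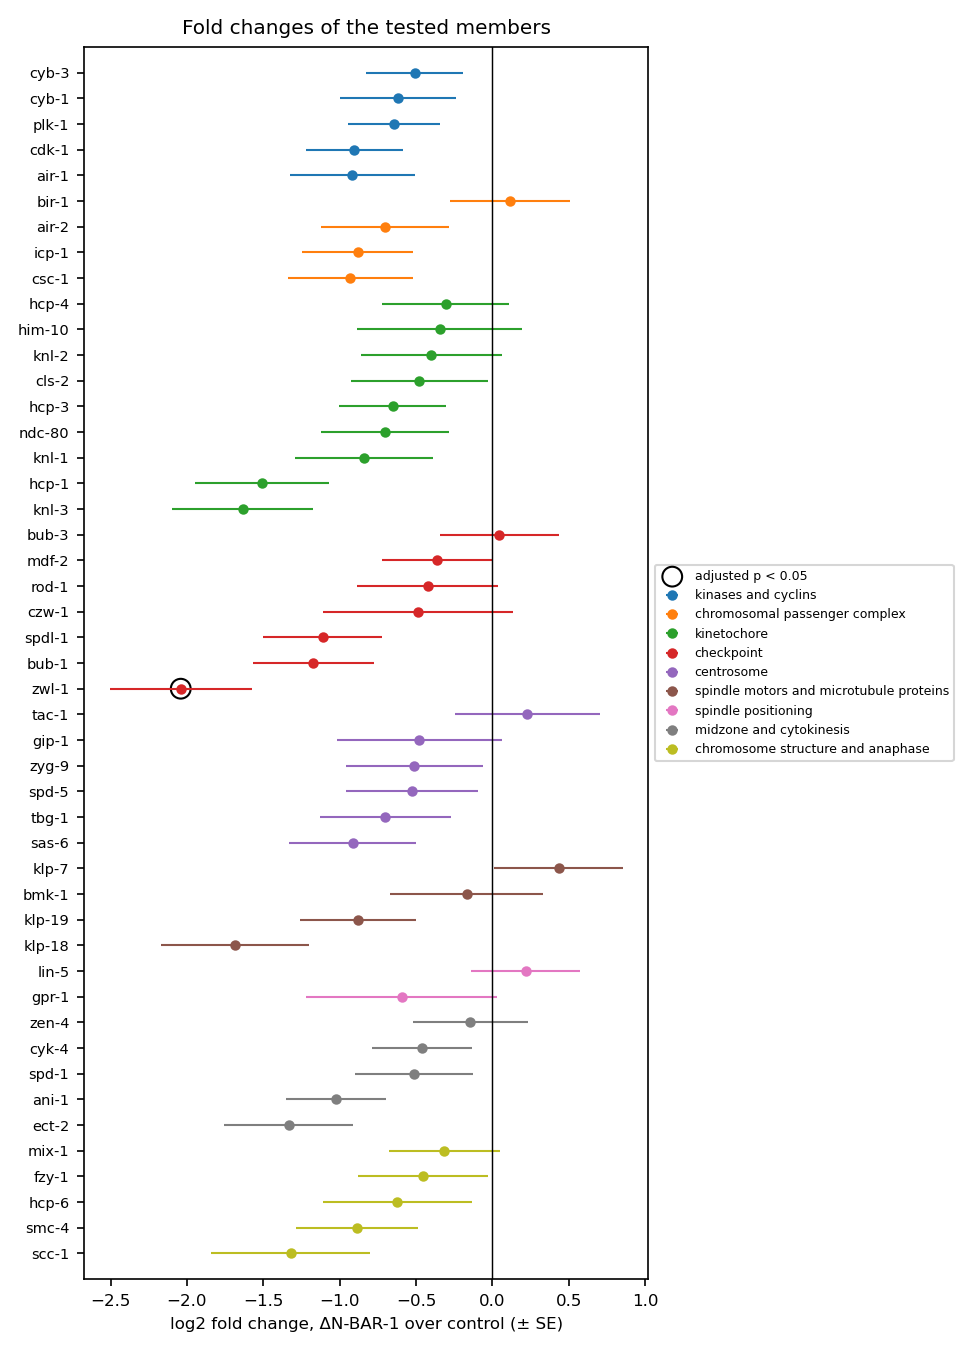
Log2 fold change of ΔN-BAR-1 over control with its standard error for each of the 47 tested members, coloured by role; the circle marks an adjusted p below 0.05. Values run from −2.04 for zwl-1 to 0.43 for klp-7, and 42 of the 47 lie below 0.

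Centrosome genes were expressed at low levels, and 5 of the 11 were below the filter. The centriole assembly genes zyg-1, sas-4 and sas-5, the scaffold gene spd-2 and the Aurora A activator gene tpxl-1 had 27, 48, 38, 14 and 41 transcripts over all libraries. Of these, zyg-1 and sas-4 had groups apart, with sas-4 at 64.7, 71.1 and 45.6 CPM in control and 14.4, 18.6 and 40.3 CPM in ΔN-BAR-1 libraries. These sas-4 values rest on 3 to 19 transcripts each. The centriole cartwheel gene sas-6 varied little within the groups, with 116, 131 and 137 CPM in control and 67.3, 69.9 and 62.7 CPM in ΔN-BAR-1 libraries (−0.91 ± 0.41; edgeR adjusted p = 0.384). Its exons overlap those of icap-1 on the same strand, so its counts are uncertain. The γ-tubulin gene tbg-1 had groups apart (−0.70 ± 0.43), while its ring complex partner gip-1 did not (−0.48 ± 0.54). The scaffold gene spd-5 and the microtubule polymerase gene zyg-9 stood at −0.53 ± 0.43 and −0.51 ± 0.45. The gene of the partner of ZYG-9, tac-1, had 162, 131 and 60.8 CPM in control and 52.8, 196 and 188 CPM in ΔN-BAR-1 libraries. Its groups overlapped and its sign changed in 4 of 16 alternatives (0.23 ± 0.47; edgeR adjusted p = 0.925).

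No spindle motor gene passed the test. The kinesin gene klp-18, best known for organising the oocyte spindle, had 109.9, 135 and 76.1 CPM in control and 28.8, 37.3 and 35.8 CPM in ΔN-BAR-1 libraries (−1.69 ± 0.48; edgeR adjusted p = 0.0825). The groups were far apart, but the call was missed in all 15 alternatives that tested the gene (0.0776 to 0.423). The chromosome-arm kinesin gene klp-19 had 155, 221 and 289 CPM in control and 96.1, 149 and 103 CPM in ΔN-BAR-1 libraries (−0.88 ± 0.38; edgeR adjusted p = 0.352). By contrast the microtubule-depolymerising kinesin gene klp-7 had 259, 78.6 and 167 CPM in control and 154, 219 and 287 CPM in ΔN-BAR-1 libraries, with a higher mean and overlapping groups (0.43 ± 0.42; edgeR adjusted p = 0.805). Its log2 fold change was 0.97 without control replicate 1 and −0.0088 without control replicate 2. The bipolar kinesin gene bmk-1 stood at −0.17 ± 0.50. Below the filter, the closely related kinesin genes klp-15 and klp-16, whose reads may be shared, had 13 and 33 transcripts in all, and the doublecortin-type kinase gene zyg-8 had 30.9 ± 1.26 CPM in control libraries and 50.7 ± 23.1 CPM in those of ΔN-BAR-1 (SD, n = 3 a group).

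Genes that position the spindle for asymmetric division were level between the groups as a sum. The NuMA-like gene lin-5 had 129, 296 and 259 CPM in control and 245, 266 and 278 CPM in ΔN-BAR-1 libraries. Control replicate 1 was the low library, and the groups overlapped (0.22 ± 0.36; edgeR adjusted p = 0.894). The log2 fold change was −0.10 without that library and −0.11 after all libraries were thinned to the shallowest. The near-identical genes gpr-1 and gpr-2, whose proteins link LIN-5 to the membrane, had 56 and 41 transcripts over all libraries. Reads of the pair may have been divided between them by the counting, so their separate values are uncertain. Only gpr-1 passed the filter, at 84.1, 52.4 and 45.6 CPM in control and 43.2, 69.9 and 8.96 CPM in ΔN-BAR-1 libraries (−0.59 ± 0.63; edgeR adjusted p = 0.827).

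Cytokinesis genes included the second most abundant member. The anillin gene ani-1, a scaffold of the contractile ring, had 1267, 741 and 1429.8 CPM in control and 490.1, 638 and 529 CPM in ΔN-BAR-1 libraries. The ΔN-BAR-1 libraries were all lower, with control replicate 2 the nearest of the controls (−1.02 ± 0.33; edgeR adjusted p = 0.127). The gene of the RhoGEF that starts ring assembly, ect-2, had 136, 195 and 137 CPM in control and 72.1, 65.2 and 49.3 CPM in ΔN-BAR-1 libraries (−1.33 ± 0.42; edgeR adjusted p = 0.125). The midzone bundler gene spd-1 had groups narrowly apart, at 146 to 183 and 98.5 to 144 CPM. The centralspindlin genes zen-4 and cyk-4 overlapped (−0.14 ± 0.38 and −0.46 ± 0.33). In zen-4 the control libraries were even, at 343, 326 and 335 CPM, and ΔN-BAR-1 replicate 1 was high at 495 CPM while replicates 2 and 3 were low at 224 and 175 CPM.

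Chromosome structure and anaphase genes all had log2 fold changes below 0. The cohesin gene scc-1, whose protein is cut to release sister chromatids, had 109.9, 82.3 and 60.8 CPM in control and 38.4, 32.6 and 31.4 CPM in ΔN-BAR-1 libraries (−1.32 ± 0.52; edgeR adjusted p = 0.265). The groups did not overlap, on 65 transcripts in all. The condensin gene smc-4 also had groups apart (−0.89 ± 0.40). Its partner mix-1, which serves dosage compensation too, had 427, 359 and 380.3 CPM in control and 461, 158 and 305 CPM in ΔN-BAR-1 libraries and overlapped (−0.31 ± 0.36; edgeR adjusted p = 0.848). The condensin gene hcp-6 and the anaphase activator gene fzy-1 (CDC-20 type) stood at −0.62 ± 0.49 and −0.45 ± 0.43. Exons of hcp-6 and spd-5 overlap on opposite strands, so part of their counts may not be told apart. Exons of klp-19, mix-1, zen-4, spd-2 and tpxl-1 overlap another gene on the other strand as well.

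The order of levels was similar at the top in both groups. In either group cyb-3, ani-1 and cls-2 had the highest means, in that order, and mix-1 was the sixth. The next genes, cdk-1 (747 ± 176 and 396 ± 80.9 CPM) and plk-1 (629 ± 85.8 and 398 ± 23.1 CPM, SD, n = 3 each), lay within their spread of each other in both groups, as did ani-1 and cls-2 in the ΔN-BAR-1 group (552 ± 76.9 and 552 ± 317 CPM). Among the genes lower in rank in ΔN-BAR-1 libraries, zwl-1 moved from place 29 to 47 and hcp-1 from place 23 to 40 of 60.

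The position of the members in the genome was not used to choose them. In the Ensembl annotation of assembly WBcel235, 0 of the 60 lie on the X chromosome, where 15.01% of the genes of the table that could be placed and 11.4% of the genes tested lie. The members lie on chromosomes I to V, with 14, 11, 17, 9 and 9 genes. Among 50 genes of DNA replication and S phase, 1 lies on X.

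Further genes of mitosis that are not members were examined beside them. Of 106 listed, among them subunits of the anaphase-promoting complex, dynein, septins and phosphatases, 63 were tested and 0 were called by edgeR, DESeq2 or limma-voom. At an unadjusted p below 0.05 edgeR gave 5 lower and 1 higher. The median was −0.26, against 0.00 over all genes tested, and 42 of 63 lay below 0. In 11 of them the groups did not overlap with ΔN-BAR-1 lower and in 1 with ΔN-BAR-1 higher, beside 7.22% and 9.92% of all genes tested. Of the 63, 12 passed the filter through the control libraries alone and 5 through the ΔN-BAR-1 libraries alone, and without the filter 53 of 87 lay below 0, with a median of −0.24. Their summed level was 15647, 16542 and 15652 CPM in control and 15374, 13958 and 13859 CPM in ΔN-BAR-1 libraries, 90.3% of control in the mean, with every ΔN-BAR-1 library below every control. The 5 lower genes were the formin gene cyk-1, which builds contractile ring actin (−1.15 ± 0.34; edgeR adjusted p = 0.0927), the CDK-binding gene cks-1 (−0.80 ± 0.31; 0.267), the topoisomerase gene top-2 (−0.67 ± 0.30; 0.384), the kinetochore gene kbp-3 (−1.02 ± 0.44; 0.352) and the septin gene unc-61 (−0.97 ± 0.44; 0.384). The higher gene was the kinesin gene klp-4, known from transport in neurons (1.73 ± 0.62; edgeR adjusted p = 0.188). Many genes of this list also act in cells that do not divide.

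Genes of the preceding step, DNA replication and S phase, mostly lay below 0. Of 36 tested, 35 lay below 0, the median was −0.80 and 15 were lower at an unadjusted p below 0.05 by edgeR, where 3.42% of all genes tested were. Among the 36, 7 passed the filter through the control libraries alone and 3 through the ΔN-BAR-1 libraries alone. Without the filter 43 of 49 lay below 0, with a median of −0.62, where 49.4% of all detected genes did. Their sum in ΔN-BAR-1 libraries was 62.3% of control, beside 65.5% for the mitosis genes; the difference between these lists was not tested. In that list mcm-7, a subunit of the replicative helicase, was the 1 gene called lower (−1.53 ± 0.32; edgeR adjusted p = 0.0136).

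Markers of neurons had the opposite sign in the same libraries. All 12 tested of 14 lay above 0, with a median of 1.40, and 3 rose over all genes (edgeR), where 1.57% of all genes were called higher. Of the 12, 4 passed the filter through the ΔN-BAR-1 libraries alone, and unc-104, which was called, is among these 4. Without the filter all 14 lay above 0, with a median of 1.41. In 7 the groups did not overlap with ΔN-BAR-1 higher and in 0 with ΔN-BAR-1 lower, beside 6.29% and 4.1% of all detected genes. Their sums were 1791, 2178 and 2023 CPM in control and 6001, 3844 and 5115 CPM in ΔN-BAR-1 libraries. The part of these neuronal transcripts in the lower share of mitosis genes was not tested. Body wall muscle markers did not separate the groups, with 7485 to 14542 CPM in control and 5688 to 18768 CPM in ΔN-BAR-1 libraries. In ΔN-BAR-1 replicate 3 the muscle gene unc-54 gave 14253 CPM of that sum, at the highest value its column holds. In that column 4 genes share this value, so it may be a limit of the counting and not a measured level. Sums of the 20 germline markers, nearly all from mex-3, were 296 to 411 CPM in control and 349 to 489 CPM in ΔN-BAR-1 libraries. Without mex-3 the other 19 summed to 51.7, 44.9 and 30.4 CPM in control and 9.61, 37.3 and 17.9 CPM in ΔN-BAR-1 libraries. The mean was lower in ΔN-BAR-1 (21.6 against 42.4 CPM) but the groups overlapped, on 2 to 12 transcripts a library. The part of germline transcripts in the lower share of mitosis genes was not tested.

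**Figure D5:**
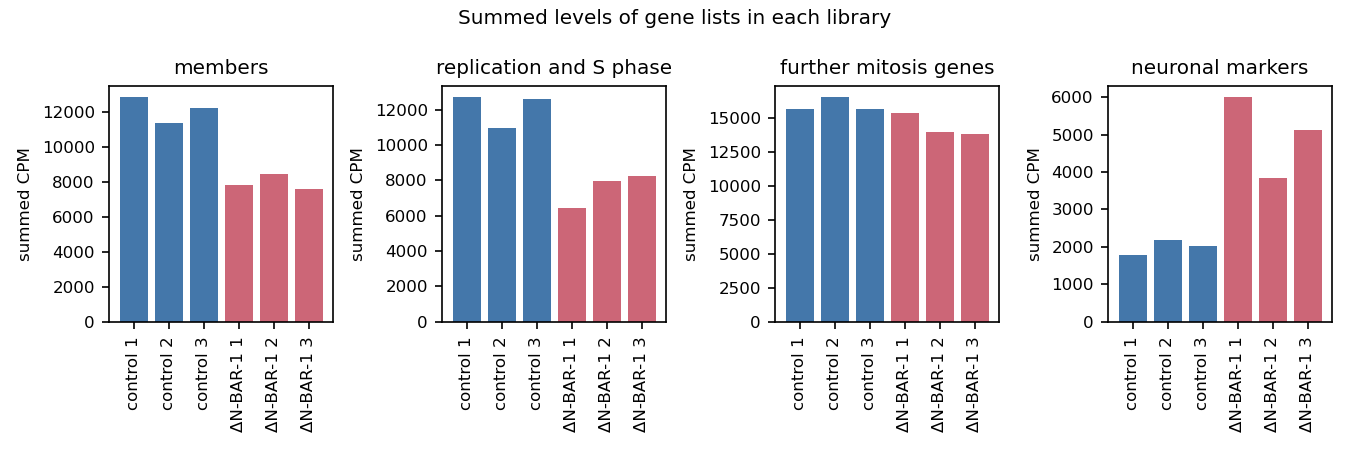
Summed level in CPM of 4 gene lists in each library (bars; blue control, red ΔN-BAR-1), each panel with its own axis from 0. The members, the replication and S phase genes and the further mitosis genes are lower in all ΔN-BAR-1 libraries than in any control, the last at 90.3% of control in the mean, and neuronal markers are higher.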

How the data were processed

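Per the labels' protocols, RNA was amplified by CEL-seq and sequencing libraries were made by CEL-seq2. The deposited values are estimated counts, 1 per gene and library, with no scaling to a common library total. Aligner, build and annotation: not given in the sources used here. Inverting the correction for 256 molecular identifiers gave whole numbers within 0.02 for at least 99.9% of values. The column of ΔN-BAR-1 replicate 3 was in another form, rescaled so that 1 identifier gives 1, and was inverted with its own formula. Its highest value was 3182, where those of the other columns were 653 to 1597. Estimated counts were rounded to whole numbers. The test across all genes was that of edgeR 4.0.16 under R 4.3.3 (TMM, filterByExpr with min.count 10 and min.total.count 15, robust quasi-likelihood F test, two-sided, group as the only term, Benjamini-Hochberg threshold 0.05). Standard errors come from the F statistics. The common biological coefficient of variation was 0.321. CPM use TMM-scaled library totals. The steps were tested on simulated counts (3474 genes passing, 6 false calls). Members and lists were chosen with earlier results of these data known. Values in every library were given for the 12 tested members with the smallest p, the most abundant tested member of each role, and near-identical or related pairs; other genes described with values were chosen after these were seen. Settings tried were other scalings, filters, tests (DESeq2 1.42.0, limma 3.58.1 voom), distinct identifiers, thinning, a replicate block and leaving out libraries. Chromosomes and overlaps are from Ensembl's WBcel235 annotation. As the build of the counts is unknown, coordinates are left out. All columns were used. Counts limit precision, and floors cover counting error only.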

Additional observations from a re-analysis of the deposited data

How the results depend on the processing

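The lower sum of the mitosis genes and the sign of their median held in every setting in which each was computed. The ΔN-BAR-1 sum was 64.3% of control with DESeq2 size factors, 61.6% with upper quartile scaling and 66.6% with distinct identifiers. The median log2 fold change of tested members was −0.47 with the stricter filter (min.count 30, 23 members tested) and −0.73 without replicate 3 of both groups, and ran from −0.71 to −0.61 without single libraries; −0.62 was the value reported. The number of members called lower was 0 with the stricter filter and after thinning to 68431 transcripts, where zwl-1 was not tested, and 0 with limma-voom, with the replicate block and without replicate 3 of both groups; it was 0 to 2 without single libraries. Members called higher numbered 0 throughout. Members at an unadjusted edgeR p below 0.05 numbered 7 of 23 with the stricter filter and 5 of 23 after thinning, where fewer genes could be tested. They numbered 11 of 52 without replicate 3 of both groups, and 10 to 19 without single libraries. Apart from those filters the cause was not tested. The share of all genes at that threshold is not given for these settings. Of 338 values of the 21 members given with a test under alternatives, 332 stayed on the same side of the threshold, zwl-1 missed it in 5 and spdl-1 passed it in 1. Only zwl-1 was called in the main test, so the other members had no call to lose and this count says little about their stability. The sign changed in 4 alternatives for tac-1, 4 for bir-1, 2 for lin-5 and 1 for klp-7. Same-numbered libraries of the groups correlated at −0.15, −0.08 and −0.03 in their deviations from the group means, so there was no sign that the replicate numbers pair the samples; with the replicate block 14 members were at an unadjusted p below 0.05. In control replicate 3, a level of 45.6 CPM is only 3 transcripts, so the rarest members are poorly measured there.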
